A study of Mus musculus with 17 samples.

Results

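Aminoacyl-tRNA synthetases are the enzymes that attach each amino acid to its tRNA, and their transcripts were followed here through the first day of Oct4 induction in mouse cells. Members were chosen by symbol alone: an amino acid letter followed by ars, with or without the suffix 1 or 2, together with Eprs, Farsa and Farsb, and no symbol that is not a synthetase was taken in. The rule found 54 of 25697 probes, 34 for cytosolic and 20 for mitochondrial enzymes, from 33 genes. Dars, Cars2 and Tars2 have no probe under these symbols. Of the 54 probes, 47 were detected on at least 1 array and entered the tests, and 7 did not. The 7 include the only probes of Yars, Hars2 and Yars2 and 1 probe each of Iars, Rars2, Cars and Wars2. The results therefore cover 30 genes, 18 cytosolic and 12 mitochondrial, each given by its brightest probe.

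A cell needs separate sets of these enzymes because proteins are made both in the cytosol and inside mitochondria. Most mitochondrial synthetases come from nuclear genes of their own, marked by the suffix 2, whereas the Gars and Kars genes each encode a cytosolic and a mitochondrial form and are counted here as cytosolic. Several cytosolic enzymes sit together in the multisynthetase complex, held by scaffold proteins that include Aimp1, Aimp2 and Eef1e1. Many cytosolic synthetase genes are targets of Atf4, the transcription factor that raises amino acid supply and tRNA charging when amino acids run short.

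Total RNA from 17 mouse samples was hybridised to Illumina BeadArrays, 1 array per condition. Untreated embryonic stem cells (ESC), in which Oct4 is active on its own, gave 1 array. Somatic cells with a tetracycline-controlled Oct4 transgene, namely embryonic fibroblasts (MEF), stem cells of the neural lineage (NSC) and cells of the bone marrow (BMC), were read at 0, 6, 12 and 24 h, and wild-type MEF and NSC were read untreated at 0 h and treated at 24 h. There was no wild-type BMC array. The inducing compound, the driving promoter, and the strain and age of the animals are not given in the sources used here. The transgenic 0 h arrays are labelled as treated.

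At a detection p under 0.01, between 39.8 and 43.1 percent of probes were detected per array. The 4 transgenic MEF arrays were dimmer, with mean raw intensities of 382 to 437 against 548 to 672 on the other arrays. Pou5f1, the gene of Oct4, was detected on neither wild-type line. It stood at 8.41 on the log2 scale in transgenic MEF already at 0 h and at 14.02 to 14.49 afterwards. In NSC and BMC it was not detected at 0 h and read 10.22 to 11.20 and 10.85 to 11.09 afterwards. All 9 pluripotency markers were detected in ESC and 8 of 8 fibroblast markers on each MEF array. Of the 7 neural stem markers with a probe, 6 were detected on each NSC array and the other on no array. Of the 9 pluripotency markers, 3 or 4 were also detected on each transgenic NSC array and 2 or 3 on each wild-type NSC array. On the BMC arrays, 7 of 7 blood markers were detected at 0, 6 and 12 h and 5 of 7 at 24 h. Fibroblast markers were detected as well, 5 or 6 of 8. The median level of the blood markers was 10.69 at 0 h and 6.90 at 24 h, but the median of their changes was -0.07. Mpo and Elane fell, with fitted log2 changes over 24 h of -6.71 and -4.99 by the trend test below. The other blood markers had -0.72 to 0.57, and none passed. All levels below are normalized log2 intensities, on which a difference of 1 is a doubling, and each probe is compared only with itself.

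Promoter sequence was read first, because Atf4 is known to act on many of these genes. RefSeq windows on GRCm38.p6, from 250 bases before to 50 bases after the transcription start, were given for 24 of the 33 genes on the array, and 28 windows of 27 synthetase genes were searched in all. The letters TGATGNAA, the core of a C/EBP-ATF response element bound by Atf4, were found on either strand in 5 of 13 cytosolic windows (38.5 percent), those of Aars, Gars, Iars, Tars and Yars, and in 0 of 15 mitochondrial ones. They stood in 3.97 percent of all 32851 promoter windows. The letters CACGTG, an E-box bound by Myc and other factors, stood in 4 of 13 cytosolic windows (Aars, Farsb, Iars and Tars) and 1 of 15 mitochondrial windows (Ears2), against 7.15 percent of all windows. GGAAG, the core of Ets factor sites, stood in 24 of 28 synthetase windows (85.7 percent) and in 71.4 percent of all windows. The windows of Aars, Iars and Tars, which carry both longer motifs, are printed whole, and the 10 bases around the matches of Gars, Farsb and Ears2 are printed because these genes fell in NSC. Sequences run 5′ to 3′ on the gene's strand. Capitals mark TGATGNAA or its reverse complement, and CACGTG, and the motifs do not overlap in these sequences. A match describes letters, not binding.
Aars (chr8:111033592-111033891, plus strand): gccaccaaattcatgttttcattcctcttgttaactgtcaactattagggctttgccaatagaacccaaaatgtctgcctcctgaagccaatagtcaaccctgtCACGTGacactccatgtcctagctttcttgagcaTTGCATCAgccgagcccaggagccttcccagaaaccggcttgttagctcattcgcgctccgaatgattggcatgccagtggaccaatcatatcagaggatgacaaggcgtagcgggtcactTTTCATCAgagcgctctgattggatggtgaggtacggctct
Iars (chr13:49681880-49682179, plus strand): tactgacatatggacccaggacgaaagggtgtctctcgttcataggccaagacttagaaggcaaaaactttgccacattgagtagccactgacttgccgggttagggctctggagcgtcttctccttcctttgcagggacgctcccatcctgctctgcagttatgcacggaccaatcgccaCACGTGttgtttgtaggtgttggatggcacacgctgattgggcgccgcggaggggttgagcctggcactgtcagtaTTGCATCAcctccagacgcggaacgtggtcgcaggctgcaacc
Tars (chr15:11399609-11399908, minus strand): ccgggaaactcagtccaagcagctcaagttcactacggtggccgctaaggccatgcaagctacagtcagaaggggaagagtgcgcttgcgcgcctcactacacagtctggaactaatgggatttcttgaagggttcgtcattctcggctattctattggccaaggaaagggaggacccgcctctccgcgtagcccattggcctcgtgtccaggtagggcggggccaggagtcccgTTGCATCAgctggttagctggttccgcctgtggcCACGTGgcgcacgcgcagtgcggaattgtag
Gars (chr6:55037961-55037988, plus strand): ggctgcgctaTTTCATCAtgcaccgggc
Farsb (chr1:78488921-78488946, minus strand): agacaggcatCACGTGagacagccca
Ears2 (chr7:122067050-122067075, minus strand): cgaaggagccCACGTGtgtgtttcta
In the Aars window the matches to the Atf4 core begin 112 bases before and at base 10 after the start. In Iars the match begins at base 8 after the start, in Tars 15 bases before it and in Gars 30 bases before it.

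At 0 h, cytosolic synthetases stood higher in MEF than in NSC and BMC. Among the somatic lines at 0 h, mitochondrial synthetases stood highest in transgenic NSC. Both sets stood high in ESC. The measure is each gene's distance from its own median over the arrays, and the median of that distance is given for the 18 cytosolic and then the 12 mitochondrial genes. In ESC it was 0.75 and 0.52. In transgenic MEF at 0 h it was 0.54 and 0.03, and in wild-type MEF at 0 h it was 0.32 and -0.04. MEF at 0 h thus stood above the middle of the arrays for cytosolic genes and close to it for mitochondrial genes. Transgenic NSC at 0 h had the opposite order, 0.00 for cytosolic and 0.59 for mitochondrial genes. Over the 8 mitochondrial genes detected on every array, the median was 0.57 in transgenic NSC at 0 h and 0.76 in ESC. Wild-type NSC at 0 h gave -0.16 and 0.11. The 4 BMC arrays lay at -0.37 to -0.26 for cytosolic and -0.17 to -0.07 for mitochondrial genes. This order did not hold at 24 h of induction. Transgenic MEF then gave -0.07 and -0.16, with 6 of 18 cytosolic genes above their own median, and transgenic NSC gave -0.55 for cytosolic genes, below every BMC array, and 0.07 for mitochondrial genes. Over all 15543 probes kept, the same median was between -0.03 and 0.02 on every array. Normalization to a common distribution keeps that median near 0, so it does not show that other genes held steady. No test was made of this contrast, since members are not replicates.

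**Figure D1:**
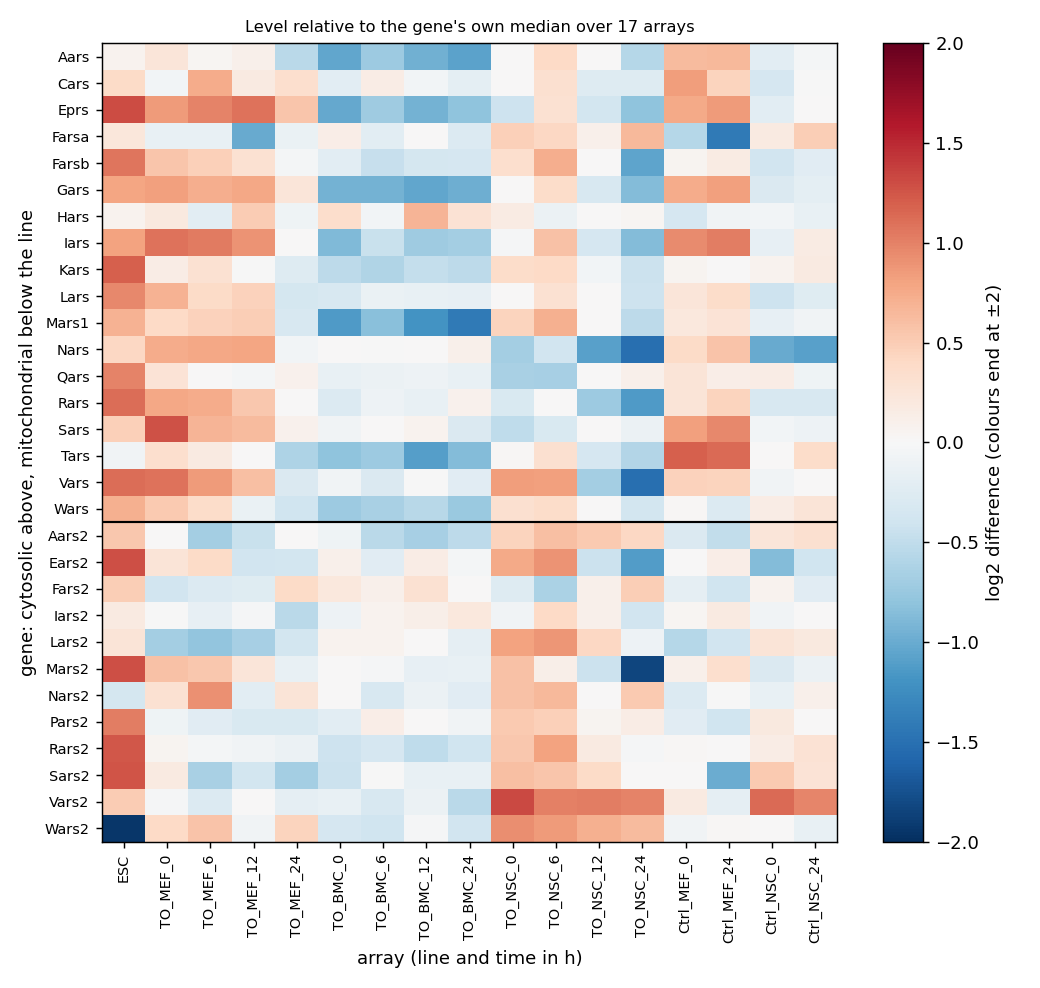
Normalized log2 level of the 30 synthetase genes (rows, cytosolic above the line, mitochondrial below) on the 17 arrays (columns, line and time in h; TO is the Oct4 transgenic and Ctrl the wild-type line), as the difference from the gene's own median. Cytosolic genes are mostly red in ESC and in MEF up to 12 h and mostly blue in BMC and in NSC at 24 h; Wars2 is the dark blue cell in ESC.

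Over the 24 h of induction, cytosolic synthetase transcripts were lower at the end than at the start in MEF and NSC, with a median change near 0 in BMC. In induced MEF the median change of the 18 cytosolic genes from 0 h came to -0.09 (6 h), -0.21 (12 h) and -0.74 (24 h), with 16 of 18 lower at 24 h. Most of the difference lay after 12 h, where the median step was -0.55 and 15 of 18 genes were lower. The 12 mitochondrial genes gave -0.10, -0.28 and -0.16, and 0.02 from 12 to 24 h. In wild-type MEF over 24 h the medians were 0.07 for cytosolic and 0.04 for mitochondrial genes. In bulk RNA, fewer cells of a type and less RNA per cell cannot be told apart.

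In induced NSC the course was not one-way. At 6 h the cytosolic median was 0.30 above 0 h, with 14 of 18 genes higher, and it then lay at -0.32 at 12 h and -0.65 at 24 h. Counted from 6 h to 24 h, the cytosolic median was -0.94. Mitochondrial genes gave 0.01, -0.33 and -0.36 from 0 h, and 11 of 12 were lower at 24 h. In wild-type NSC the medians after 24 h were 0.12 and 0.01. In BMC at 24 h they were -0.02 and -0.15, and by brightest probe no synthetase gene in either set moved by 0.5 or more. A dimmer Wars probe moved by -0.61 and a dimmer Vars probe by 0.57, neither detected at both 0 and 24 h. The median over all probes stayed between -0.01 and 0.02 in all of these changes, where normalization to a common distribution keeps it in any case. Cytosolic minus mitochondrial medians at 24 h were -0.58 in MEF, -0.29 in NSC and 0.13 in BMC, with no test.

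**Figure D2:**
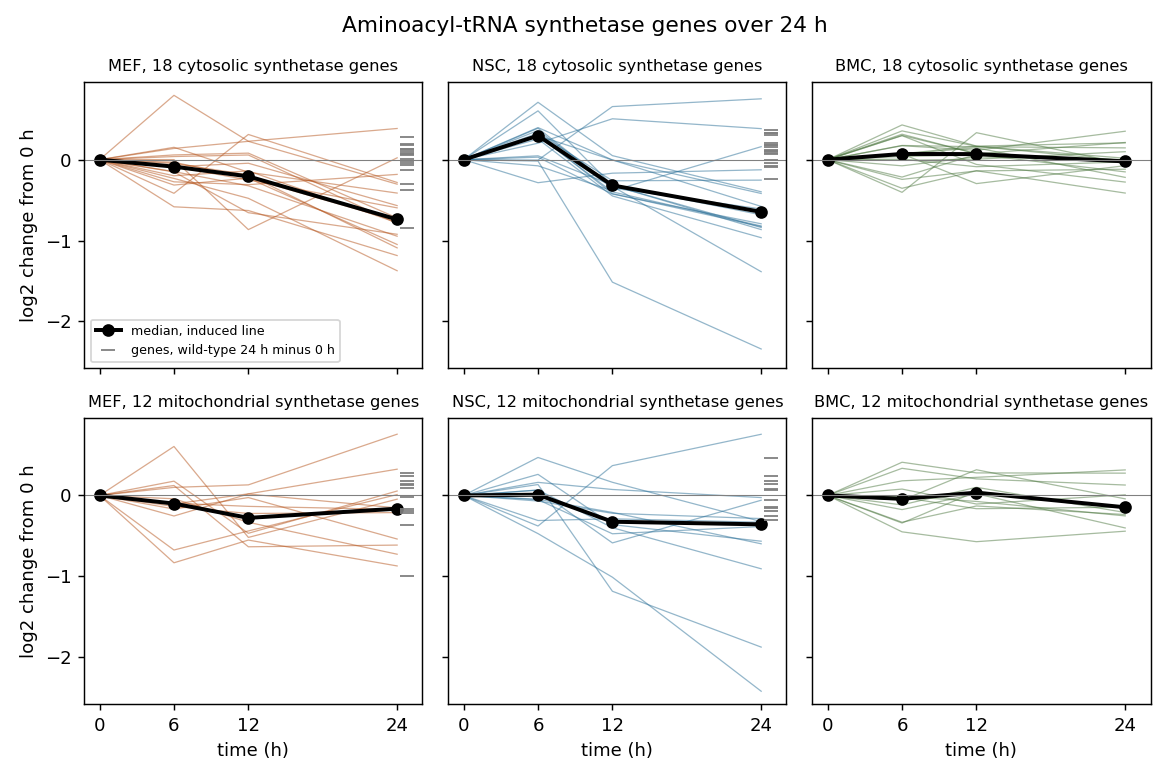
Log2 change from 0 h of the same line against time in h for the 18 cytosolic (top) and 12 mitochondrial (bottom) synthetase genes in induced MEF, NSC and BMC. Thin lines are genes, black points their median, and grey dashes at the right the change of each gene in the wild-type line over 24 h; the cytosolic median ends at -0.74 in MEF, -0.65 in NSC and -0.02 in BMC.

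Transgenic and wild-type lines were also set against each other at matched times, with no test. At 0 h, 15 of 18 cytosolic genes were higher in transgenic than in wild-type MEF (median 0.27), and 15 of 18 were higher in transgenic than in wild-type NSC (median 0.26). Of the mitochondrial genes, 8 of 12 were higher in MEF (0.16) and 10 of 12 in NSC (0.36), Ears2 the most in NSC at 1.63. At 24 h the cytosolic genes lay on the other side, with 17 of 18 lower in transgenic MEF (median -0.50) and 15 of 18 lower in transgenic NSC (-0.57). The mitochondrial medians at 24 h were 0.06 and -0.14. Cytosolic levels thus lay mostly above wild type at 0 h and mostly below it at 24 h.

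Change was tested gene by gene as a linear trend over 0, 6, 12 and 24 h, given as the fitted log2 change over 24 h ± SE. The trends come from limma over the 16 somatic arrays, with Benjamini-Hochberg adjustment over 15543 probes and a threshold of 0.05. The error is the spread of times and arrays around the fitted lines, not the spread between cultures, which was not measured. In induced MEF, 8 of 47 synthetase probes fell (17.0 percent), 7 of 31 cytosolic and 1 of 16 mitochondrial, against 4.89 percent of all probes. By brightest probe, 6 of 30 genes fell (20.0 percent, against 5.13 percent of all genes). By limma 0 of 47 probes rose, where 6.11 percent of all probes and 6.55 percent of all genes did; 21 of 47 had an unadjusted p under 0.05 in either direction (25.0 percent of all probes). In induced NSC, 18 of 47 probes fell (38.3 percent), 14 of 31 cytosolic and 4 of 16 mitochondrial, against 11.4 percent of all probes. By brightest probe 13 of 30 NSC genes fell (43.3 percent, against 11.8 percent of all genes). The 2 that rose in NSC, Qars and Fars2, are 4.26 percent of the probes and 6.67 percent of the genes, where 11.9 percent of all probes and 12.4 percent of all genes rose.

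In BMC 0 of 47 probes passed by limma, where 0.772 percent of all probes and 0.851 percent of all genes did. At an unadjusted p under 0.05 the count was also 0 of 47, against 5.85 percent of all probes. A step test (6, 12 and 24 h against 0 h) in limma called 0 synthetase probes in MEF, NSC or BMC, where it called 0.193, 0.206 and 0.0322 percent of all probes. Its unadjusted p was under 0.05 for 2, 2 and 0 synthetase probes, and for 9.26, 8.47 and 2.23 percent of all probes. Most trend calls were lost without the 24 h array of their line. That fit spans only 0 to 12 h, so a lost call does not show that the change lies at 24 h. Without the induced MEF array at 24 h 0 MEF calls were left, and without that at 0 h 1 was left. The share of all probes called in MEF went from 11.0 percent to 2.55 and 5.53 percent. Without the induced NSC array at 24 h, 2 NSC calls were left, Mars2 and 1 Vars probe. Of all probes, 3.57 percent were then called in NSC, from 23.3 percent. Leaving out the NSC array at 0 h or 6 h raised the MEF count to 13 or 15 (13.2 or 13.3 percent of all probes).

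**Figure D3:**
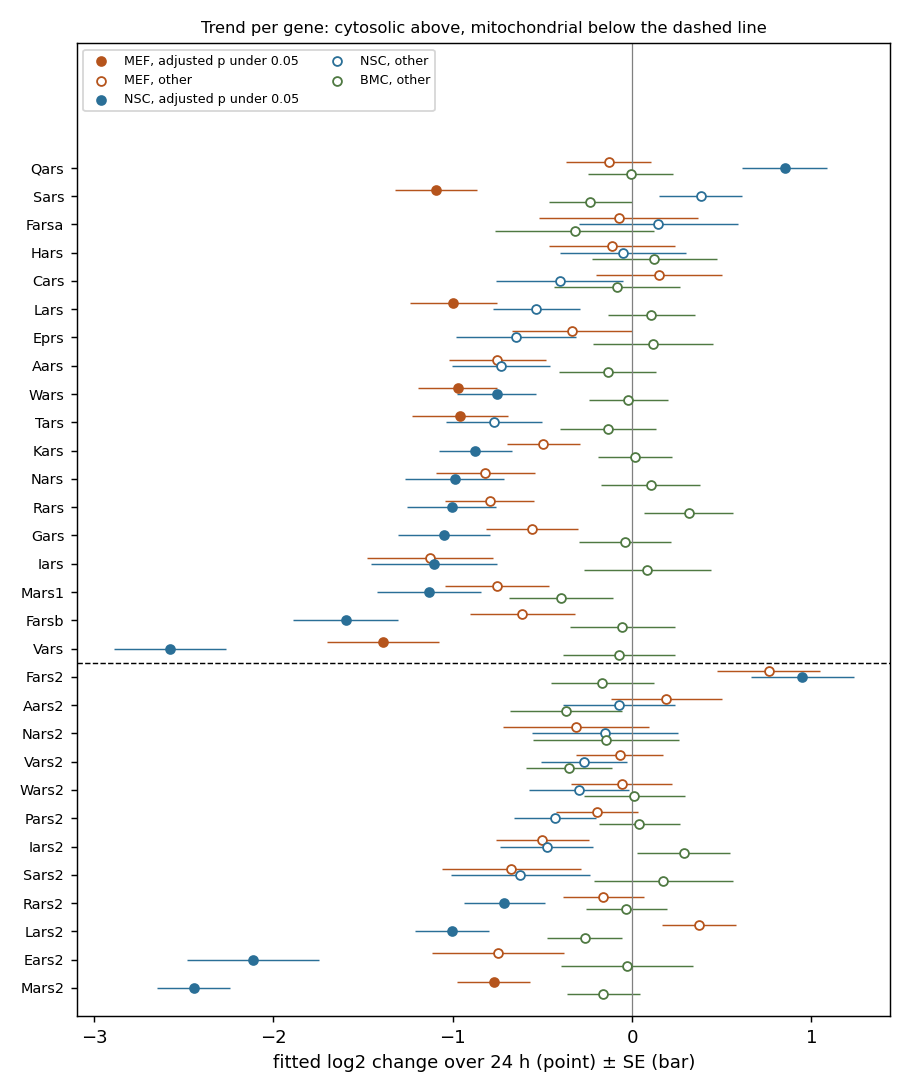
Fitted log2 change over 24 h (points) with its SE (bars) for each synthetase gene in induced MEF, NSC and BMC, cytosolic genes above and mitochondrial genes below the dashed line, ordered by the NSC trend. Filled points have an adjusted p under 0.05 in limma: 6 genes in MEF, 15 in NSC and 0 in BMC; Vars lies lowest among cytosolic genes in both MEF (-1.39) and NSC (-2.58).

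Vars, which charges valine tRNA, had the lowest trend among cytosolic genes in both cell types. Its brightest probe read 10.14, 9.91, 9.66 and 8.77 at 0, 6, 12 and 24 h in induced MEF, and 9.52 and 9.49 at 0 and 24 h in wild-type MEF. In induced NSC it read 9.89, 9.87, 8.37 and 7.54, against 8.99 and 9.06 in wild-type NSC. In BMC the 4 times lay between 8.77 and 9.05. The induced lines thus started above and ended below their wild-type lines, and the NSC drop came after 6 h. The trend was -1.39 ± 0.31 in MEF (limma, adjusted p = 0.0132) and -2.58 ± 0.31 in NSC (adjusted p = 0.000165). The MEF call was lost without the 0 h or the 24 h MEF array, and the NSC call held without any one array. A second Vars probe gave -0.99 ± 0.33 in MEF (adjusted p = 0.0725) and -2.48 ± 0.33 in NSC (adjusted p = 0.000268). The third Vars probe, detected on 8 arrays, gave 0.18 and -0.78 and was called in neither.

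Farsb encodes the beta subunit of the phenylalanine enzyme, which works only with the alpha subunit from Farsa. In induced NSC Farsb read 11.72, 12.11, 11.38 and 10.33 at the 4 times, and 11.00 and 11.17 in wild-type NSC. The 24 h array was the only induced one below the wild-type values. Farsb fell by 1.60 ± 0.29 in NSC (limma, adjusted p = 0.00222), and the trend of its other probe was -1.61 ± 0.27 (adjusted p = 0.00135). In MEF it read 11.95, 11.86, 11.70 and 11.35, with a trend of -0.61 ± 0.29 that did not pass (adjusted p = 0.216). Farsa, a dim probe detected on 15 arrays, read 6.60, 6.52, 6.21 and 6.76 in induced NSC, and its trend of 0.15 ± 0.44 did not pass. Whether the subunits differ from each other was not tested.

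Sars, the serine enzyme, differed between MEF and NSC on its brightest probe. It read 10.04, 9.46, 9.41 and 8.85 in induced MEF and 9.60 and 9.73 in wild-type MEF. In induced NSC it read 8.26, 8.47, 8.77 and 8.65, and in wild-type NSC 8.71 and 8.67. MEF values went down at each later time while NSC values stayed within about their wild-type level from 12 h. The trend was -1.09 ± 0.23 in MEF (limma, adjusted p = 0.00922) and 0.38 ± 0.23 in NSC (adjusted p = 0.275), and the difference of -1.48 ± 0.33 passed (adjusted p = 0.0119). A second Sars probe gave -0.40 ± 0.34 in MEF and 0.88 ± 0.34 in NSC, neither called, with a difference of -1.28 ± 0.48 (adjusted p = 0.112).

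Lars, Tars and Wars, for leucine, threonine and tryptophan, were the other cytosolic genes whose brightest probe fell in MEF. Lars read 10.24, 9.93, 10.01 and 9.19 in induced MEF and 9.79 and 9.92 in wild-type MEF, a trend of -0.998 ± 0.24 (limma, adjusted p = 0.0201). Tars read 7.61, 7.46, 7.29 and 6.67 in induced MEF and 8.48 and 8.41 in wild-type MEF, a trend of -0.96 ± 0.27 (adjusted p = 0.0369) that was -0.58 without background correction. Tars was thus below wild type at all 4 times, unlike Lars, which crossed it. Its call was lost when any of 6 arrays was left out, among them both wild-type MEF arrays, and its second probe, detected on 7 arrays, gave -0.22 ± 0.30. Wars read 9.82, 9.67, 9.16 and 8.90 in induced MEF and 9.33 and 9.02 in wild-type MEF, where it was also lower at 24 h. Its trend was -0.97 ± 0.22 in MEF (limma, adjusted p = 0.0139) and -0.75 ± 0.22 in NSC (adjusted p = 0.0266), where it read 9.61, 9.66, 9.30 and 8.93. The other 3 Wars probes had trends of -0.85 to -0.70 in MEF and -0.89 to -0.53 in NSC, and none was called. The Lars and Wars calls in MEF were lost without the 0 h or the 24 h MEF array. Without the 24 h array the trend was -0.46 for Lars and -1.31 for Wars, and without the 0 h array -1.08 and -0.96.

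Iars and Mars1, for isoleucine and methionine and both in the multisynthetase complex, were called in MEF by 1 probe each that was not the brightest. The brightest Iars probe read 11.09, 11.05, 10.90 and 10.001 in induced MEF and 10.95 and 11.03 in wild-type MEF, a level course until 12 h with a drop after it. Its trend of -1.13 ± 0.35 did not pass (limma, adjusted p = 0.0589). The other Iars probe detected on all 17 arrays read 10.37, 10.26, 9.92 and 8.96 in induced MEF, already a change of -0.45 at 12 h. That probe fell by 1.46 ± 0.30 (limma, adjusted p = 0.00804), and a probe detected on 1 array gave 0.38 ± 0.25. In induced NSC the brightest Iars probe read 9.98, 10.58, 9.66 and 9.14, a trend of -1.11 ± 0.35 (adjusted p = 0.0382) that was lost without any of 5 arrays. Mars1 in induced MEF read 9.73, 9.79, 9.81 and 9.01, with a trend of -0.75 ± 0.29 (adjusted p = 0.121), while its second probe fell by 1.35 ± 0.37 (adjusted p = 0.0344). In NSC Mars1 read 9.78, 10.03, 9.33 and 8.81 and fell by 1.13 ± 0.29 (adjusted p = 0.0138), and the second probe had a trend of -1.74 ± 0.37 (adjusted p = 0.00528), or -1.06 without background correction. Both Iars and Mars1 were highest at 6 h among the induced NSC arrays.

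Gars, Kars, Nars and Rars, for glycine, lysine, asparagine and arginine, passed in NSC and not in MEF. Gars read 13.04, 13.41, 12.73 and 12.18 in induced NSC (wild type 12.75 and 12.86) and fell by 1.05 ± 0.26 (limma, adjusted p = 0.0108). Kars read 10.05, 10.09, 9.63 and 9.26 (wild type 9.75 and 9.87) and fell by 0.87 ± 0.20 (adjusted p = 0.0088). In all 4 genes the 6 h array was the highest and the 24 h array the lowest of the induced NSC line. Nars read 9.08, 9.38, 8.68 and 8.26 (wild type 8.75 and 8.68) and fell by 0.99 ± 0.28 (adjusted p = 0.0209). Rars read 10.15, 10.46, 9.73 and 9.32 (wild type 10.14 and 10.13) and fell by 1.00 ± 0.25 (adjusted p = 0.0118). Their MEF trends were -0.56, -0.49, -0.82 and -0.79, none past the threshold, and a difference between MEF and NSC passed for none of them. Nars and Rars in MEF held level to 12 h and were lower at 24 h, at 10.51, 10.54, 10.56 and 9.71 for Nars and 11.23, 11.20, 11.00 and 10.47 for Rars.

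Qars, the glutamine enzyme of the complex, went the other way in NSC. It read 10.67, 10.66, 11.33 and 11.42 in induced NSC and 11.47 and 11.23 in wild-type NSC. The 0 and 6 h arrays lay below the wild-type values and the 12 and 24 h arrays close to them. The trend was 0.85 ± 0.24 (limma, adjusted p = 0.0210), and the call was lost without the 0 h or the 24 h NSC array. In MEF it read 11.60, 11.32, 11.29 and 11.41, a trend of -0.13 ± 0.24.

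The remaining cytosolic genes passed in neither cell type. Aars, the alanine enzyme, had trends of -0.75 ± 0.27 in MEF (limma, adjusted p = 0.0989) and -0.73 ± 0.27 in NSC (adjusted p = 0.0700). Eprs, a fused enzyme for glutamate and proline, had -0.33 and -0.65 on its brightest probe and -0.70 and -0.69 on the other. Cars and Hars, for cysteine and histidine, were detected on 1 and 2 arrays, so their values are mostly background.

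Among mitochondrial enzymes, Mars2, which charges the methionine tRNA used to start and extend mitochondrial proteins, fell in both cell types. In induced NSC it read 7.38, 6.91, 6.37 and 4.96, and it was not detected at 24 h. Wild-type NSC read 6.50 and 6.68. Against the detection floor of the 24 h array, the 24 h level was at least 3.63-fold lower than at 0 h. The NSC trend was -2.44 ± 0.20 (limma, adjusted p = 3.97e-05) and its call held without any one array, but its size includes a 24 h value below detection and was -1.10 without background correction. In MEF Mars2 read 7.38, 7.34, 7.04 and 6.65 against 6.90 and 7.14 in wild-type MEF, a trend of -0.77 ± 0.20 (adjusted p = 0.0286) whose call was lost without the MEF array at 0, 6 or 24 h, and which was -0.46 without background correction. The difference of the trends, MEF minus NSC, was 1.67 ± 0.29 (adjusted p = 0.00336).

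Ears2, Lars2 and Rars2, the mitochondrial glutamate, leucine and arginine enzymes, fell in NSC. Ears2 read 8.59, 8.73, 7.41 and 6.72, against 6.96 and 7.43 in wild-type NSC, a trend of -2.11 ± 0.37 (limma, adjusted p = 0.00165). The transgenic line thus began well above wild-type NSC, lay between the wild-type values at 12 h and below both at 24 h. Lars2 read 8.89, 8.96, 8.49 and 7.98, against 8.33 and 8.28, a trend of -1.002 ± 0.21 (adjusted p = 0.0044). In induced MEF Lars2 read 7.39, 7.29, 7.42 and 7.72, a trend of 0.37 ± 0.21 that did not pass, and the difference of 1.37 ± 0.29 between MEF and NSC passed (adjusted p = 0.0099). Rars2 read 9.54, 9.80, 9.18 and 8.98, against 9.15 and 9.29, a trend of -0.71 ± 0.23 (adjusted p = 0.0377). The Rars2 call was lost without any of 6 arrays, and its other tested probes gave -0.33 and -0.36, not called.

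Fars2, the single-chain phenylalanine enzyme of mitochondria, rose in NSC while cytosolic Farsb fell. It read 9.47, 9.10, 9.84 and 10.23 in induced NSC, and 9.81 and 9.51 in wild-type NSC, a trend of 0.95 ± 0.28 (limma, adjusted p = 0.0297). In induced MEF it read 9.35, 9.45, 9.48 and 10.11, and in wild-type MEF 9.55 and 9.33, a trend of 0.76 ± 0.28 (adjusted p = 0.112). In both cell types the 24 h array was the highest of the induced line. The NSC call was lost without the 24 h NSC array. The other 7 mitochondrial genes, Aars2, Iars2, Nars2, Pars2, Sars2, Vars2 and Wars2, had trends of -0.67 to 0.19 in MEF and -0.62 to -0.07 in NSC, and none passed. Nars2 and Aars2 were detected on 3 and 7 arrays.

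Because wild-type cells were treated too, the induced trend was also tested against the wild-type one. Each wild-type line was read at 0 and 24 h only, so its intercept and slope fit its arrays exactly. The residual spread in this test comes from the induced lines alone and holds no measure of wild-type spread. In NSC 7 of 47 probes passed (14.9 percent, against 8.37 percent of all probes), each lower in the induced line. They were both Farsb probes (-1.74 ± 0.43 and -1.76 ± 0.46), 2 Vars probes (-2.53 ± 0.52 and -2.64 ± 0.50), Mars2 (-2.62 ± 0.30), Ears2 (-2.58 ± 0.55) and 1 Wars probe (-2.06 ± 0.55). That Wars probe read 6.15, 6.63, 6.45 and 5.41 in induced NSC and 5.93 and 7.11 in wild-type NSC, so its difference includes a higher wild-type value at 24 h. It was not detected in induced NSC at 24 h, where it was at least 1.54-fold lower than at 0 h against the detection floor. All 7 were lost without the NSC array at 24 h, and 17 probes passed without that at 0 h. Leaving out any one of 6 MEF or BMC arrays (MEF at 6 or 12 h, or any BMC array) left 4. In MEF 0 of 47 passed by limma (1.14 percent of all probes did), with 11 at an unadjusted p under 0.05 (13.8 percent of all probes) and a smallest adjusted p of 0.0933, so a MEF fall beyond wild type was not shown for any synthetase.

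Differences between cell types were tested in the same way. MEF and NSC trends differed for 3 of 47 probes (6.38 percent, against 11.0 percent of all probes), the Sars, Mars2 and Lars2 probes given above. These were 0 without the MEF array at 24 h, 1 without the NSC array at 24 h and 6 without the NSC array at 0 h. The shares of all probes were then 4.65, 2.67 and 14.8 percent. NSC and BMC trends differed for 7 of 47 (14.9 percent, against 10.7 percent), lower in NSC for 2 Vars probes, both Farsb probes, 1 Rars probe, Mars2 and Ears2. Without the BMC or the NSC array at 24 h 0 were left (0.161 and 2.56 percent of all probes). Without the BMC array at 0 h 3 were left (4.43 percent), and without the NSC array at 0 h there were 16 (16.6 percent). MEF and BMC trends differed for 0 of 47 by limma (3.44 percent of all probes), with 16 at an unadjusted p under 0.05 (16.9 percent of all probes) and a smallest adjusted p of 0.0512 for Iars. That count of 0 became 1 without the NSC array at 0 h and 3 without that at 6 h (4.10 and 4.27 percent of all probes). The blood markers Mpo and Elane fell in BMC over these hours, as given above, and the part of such changes in the BMC values was not tested.

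Cytosolic genes inside and outside the multisynthetase complex gave medians on the same side of 0 in MEF and in NSC. In BMC the median trends were 0.09 inside and -0.07 outside. Of the 7 measured complex members, 1 fell in MEF (median trend -0.75) and 4 fell and 1 rose in NSC (median -0.87). Of the 11 others, 4 fell in MEF (median -0.75) and 5 fell in NSC (median -0.75). Of the 11 measured genes listed as Atf4 targets, 4 fell in MEF (median -0.82) and 5 in NSC (median -0.75), and of the 7 others 1 fell in MEF (median -0.50) and 4 fell and 1 rose in NSC (median -0.87). Vars and Farsb, the lowest in NSC, are on neither list. Of all genes, 5.13 percent fell in MEF, 11.8 percent fell in NSC and 12.4 percent rose in NSC. The median trends of all genes were -0.01 and 0.02, and normalization keeps these near 0.

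Among other genes of tRNA charging and translation, Aimp2 alone passed in MEF. Aimp2, a scaffold of the complex and 1 of 8 tested synthetase partners, had a MEF trend of -1.39 ± 0.32 (limma, adjusted p = 0.0143). Aimp2 also fell in NSC (trend -1.89 ± 0.32, adjusted p = 0.00132), as did the scaffold Eef1e1 (-2.31 ± 0.47, adjusted p = 0.00397), making 2 of 8 partners in NSC. These counts and those that follow stand beside the shares of all genes just given. Of 15 tested genes of mitochondrial tRNA charging and translation, 3 fell in NSC. These were Qrsl1, a subunit of the mitochondrial glutamyl-tRNA amidotransferase (-1.17), and the elongation factors Tsfm (-1.29) and Gfm1 (-1.08). Of 9 cytosolic elongation and termination genes, 4 fell in NSC, Eif5a (-1.95), the ribosome recycling factor Abce1 (-1.19), and the release factors Etf1 (-0.95) and Gspt1 (-0.82), and Eef2, which moves the ribosome along, rose (1.06).

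A list of genes linked to Atf4 was read beside the synthetases. It mixes genes of amino acid supply with stress and regulatory genes such as Ddit3, Trib3 and Cebpb, so its counts are not of supply genes alone. Of 26 tested genes 11 fell in MEF (5.13 percent of all genes did, and the list's median trend was -1.21), among them Cebpb (-2.67 ± 0.38), Chac1, which degrades glutathione (-2.11 ± 0.51), the glycine transporter Slc6a9 (-2.08 ± 0.47) and Shmt2, a mitochondrial serine enzyme (-1.95 ± 0.30). In NSC 6 fell and 2 rose (median -0.39). Mthfd2, of mitochondrial folate metabolism (-2.78 ± 0.71), asparagine synthetase Asns (-2.22 ± 0.52) and the amino acid transporter Slc7a5 (-1.89 ± 0.35) fell, and the stress gene Ddit4 rose (1.95 ± 0.64). Atf4 itself fell by 1.22 ± 0.27 in MEF (limma, adjusted p = 0.0108) and by 0.82 ± 0.27 in NSC (adjusted p = 0.0414). In NSC, all 15 tested cell cycle genes fell as well, with a median trend of -3.96, against 1 of 15 in MEF (median -0.45). In MEF 9 of 12 interferon response genes rose, with a median of 1.82, where 6.55 percent of all genes rose. The part of either in the synthetase values was not tested.

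ESC gave the highest level of the 17 arrays for 13 of 30 synthetase genes (43.3 percent), against 21.3 percent of all probes kept. The second share counts every probe, not the brightest of each gene, so the units differ. They were 8 of 18 cytosolic genes, Eprs, Farsb, Kars, Lars, Qars, Rars, Vars and Wars, and 5 of 12 mitochondrial genes, Ears2, Mars2, Pars2, Rars2 and Sars2. With 1 ESC array there is no test. Kars read 10.88 in ESC and 9.09 to 10.09 on the 16 somatic arrays, and Rars2 read 10.24 against 8.48 to 9.80. For Vars the margin was small, 10.17 against a somatic highest of 10.14 in transgenic MEF at 0 h. Sars2, the mitochondrial serine enzyme, read 7.71 against 5.47 to 7.06.

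Nars2 and Wars2 were lowest in ESC (6.67 percent of the genes, against 14.0 percent of all probes). Nars2 was not detected there and rarely elsewhere. Wars2, the mitochondrial tryptophan enzyme, read 4.66 in ESC, where it was not detected, and 6.22 to 7.54 on the somatic arrays, all 16 of which detected it. The somatic mean was at least 2.64-fold above the ESC floor. Raw intensities of that probe were 110 in ESC and 152 to 334 elsewhere. The other 2 Wars2 probes were detected on 2 and 0 somatic arrays and cannot show such a gap.

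**Figure D4:**
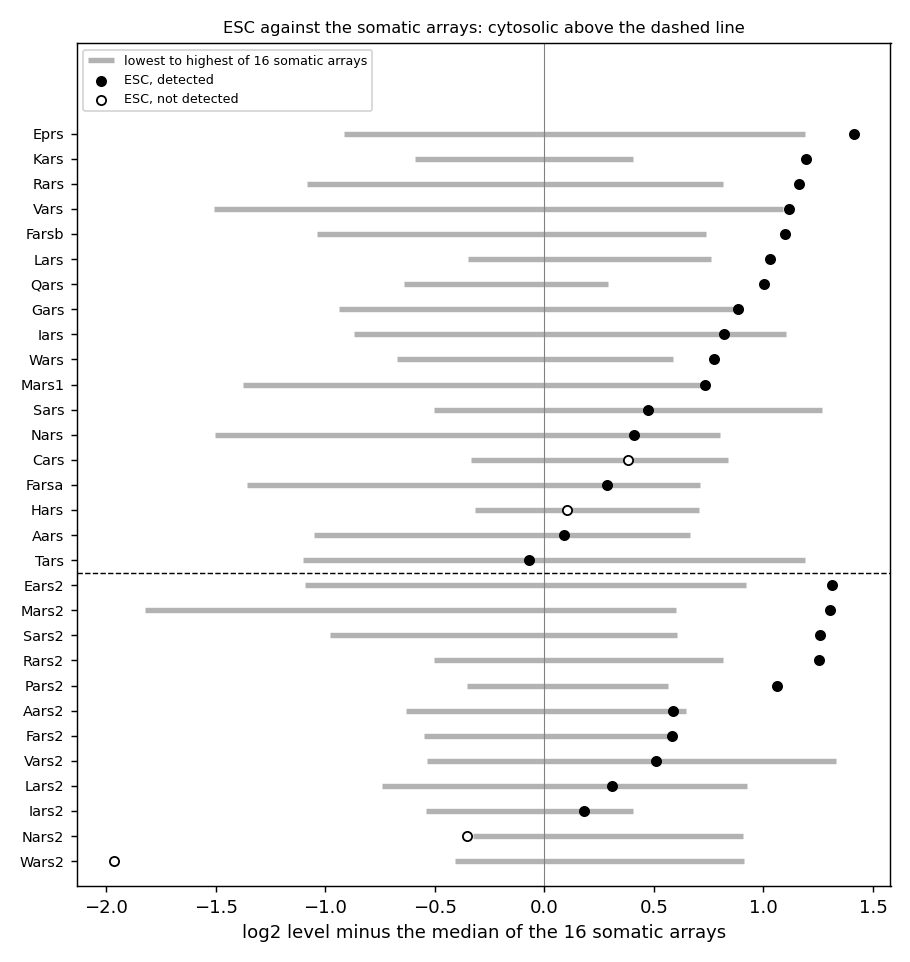
Log2 level of each synthetase gene in ESC (points, filled where detected) and the lowest to highest of the 16 somatic arrays (grey bars), both relative to the gene's somatic median; cytosolic genes above the dashed line. ESC lies beyond the somatic range for 13 genes at the top end, and Wars2, not detected in ESC, is the open point farthest to the left.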

How the data were processed

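The members, the gene lists and the use of a linear trend were chosen with earlier results of these data known. The deposited probe table gives linear, unnormalized intensity and, for each value, a detection p-value, as exported by the authors. The authors' deposited series matrix holds log2 values, which kept the rank order of the intensities (correlation 1.000) and served as an alternative. BeadStudio 3.2, lumi and RMA are named, per the submitters' processing notes, without their order or settings. Every array column was assigned to a condition (0 unassigned). Times are from the titles; the source field of the wild-type MEF 24 h array gives another number.

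With limma 3.58.1 in R 4.3.3, intensities were background-corrected (normexp, offset 16, negative controls inferred from detection p-values), taken to log2 and quantile-normalized over 17 arrays. The 15543 probes (10572 genes) detected on 1 array or more, at a detection p under 0.01, were tested. Symbols came from the platform annotation, 23978 probes having 1 symbol and 1719 none.

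The trend fit had an intercept for each of 5 lines and a slope for each induced line (8 residual and 4.67 prior degrees of freedom). The comparison with wild type had 5 slopes (6 residual degrees of freedom, all from the induced lines). Each gene is given by its probe of highest mean. Genes named with values are those called in any cell type, plus, of other lists, up to 4 called genes of largest trend. Atf4, the factor the list is named for, Aars, Eprs, Farsa, Cars and Hars were added after their values were seen. Alternatives were no background correction, an offset of 50, the authors' log2 values, no filter, detection on 4 arrays, a step in place of the trend and leaving out each array. The number of arrays limits the precision.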

Additional observations from a re-analysis of the deposited data

Results flagged for a closer look

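The values below are differences between 24 h trends (log2, ± SE) that passed limma's test of the difference itself with adjustment over all probes. They are given without explanation. Between MEF and NSC, Mars2 differed by 1.67 ± 0.29 and Lars2 by 1.37 ± 0.29, both less negative or higher in MEF, and Sars by -1.48 ± 0.33, lower in MEF.

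Between NSC and BMC, the NSC trend was lower for Mars2 (-2.29 ± 0.29), Vars on both called probes (-2.41 ± 0.46 and -2.50 ± 0.44), Ears2 (-2.08 ± 0.52), Farsb on both probes (-1.76 ± 0.38 and -1.54 ± 0.41) and 1 Rars probe (-1.32 ± 0.35).

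Between induced and wild-type NSC, the induced trend was lower for Vars (-2.53 ± 0.52 and -2.64 ± 0.50), Mars2 (-2.62 ± 0.30), Ears2 (-2.58 ± 0.55), Farsb (-1.74 ± 0.43 and -1.76 ± 0.46) and 1 Wars probe (-2.06 ± 0.55). Mars2 and that Wars probe were not detected in induced NSC at 24 h, so the sizes of their differences include a value below detection. These comparisons share arrays. They rest on 1 array per time, and the report gives the arrays without which each set was lost.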

How the results depend on the processing

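Counts of synthetase probes past the threshold moved with these settings. The percentage of all probes called under the same setting is given in parentheses. In MEF the 8 (11.0) became 13 without background correction (13.1), 5 with the authors' log2 values (6.85) and 0 with the step (0.193). In NSC the 20 (23.3) became 0 with the step (0.206). Beyond wild type, the MEF count of 0 (1.14) became 1 without background correction (1.78). The NSC count of 7 (8.37) became 4 with the authors' values (3.61). The 3 that differed between MEF and NSC (11.0) became 0 with the step (0.0129). The 0 between MEF and BMC (3.44) became 1 without background correction (4.37), with an offset of 50 (4.32) or with detection on 4 arrays (3.61). The 7 between NSC and BMC (10.7) became 4 with the authors' values (6.05) and 0 with the step (0.0322). Leaving out 1 array at a time gave 0 to 15 in MEF, 2 to 24 in NSC and 0 to 0 in BMC. Beyond wild type the counts were 0 to 1 in MEF and 0 to 17 in NSC. They were 0 to 6 between MEF and NSC, 0 to 3 between MEF and BMC and 0 to 16 between NSC and BMC. The share of all probes called moved too, from 2.55 to 13.3 percent in MEF and from 3.57 to 24.1 percent in NSC. For single called probes, 399 trends with an array left out and 130 under other settings stayed past the threshold in the same direction. Another 49 and 38 kept direction only, and 0 turned. A left-out array of another line cannot change a slope, only its error, so most values with an array left out could not turn. Without the 24 h array of their own line, 0 MEF calls and 2 NSC calls were left. The cytosolic minus mitochondrial median at 24 h kept its sign in all 3 cell types under each change of background, scale or filter tried. The count of 13 genes highest in ESC also stayed, but changes of background or scale could hardly alter it. They keep each probe's rank within its array, and normalization to a common distribution then fixes its order over the arrays. The direction of each probe's change is fixed in the same way, so neither result is a check on the processing. A step test and a trend ask different questions, and the cause of the other moves was not tested. No paired analysis was possible because every array carries the replicate number 1 and each condition has a single array. Genes detected on few arrays (Cars, Hars, Nars2, Aars2) are limited by signal over background.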
